A study of Mus musculus with 6 samples.

Results

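Transcribed processed pseudogenes are intronless copies of messenger RNAs that were reverse transcribed, inserted elsewhere in the genome, and are themselves transcribed. The genes of this biotype in GENCODE release M21 (mouse build GRCm38) with at least 30 counts summed over the 6 libraries were taken, which gave 60 genes. Of these, Rps4l and Gm5124 were left out by name, and Smarca5-ps (chr4:145464204-145467420) was left out with a distal interval of chromosome 4, in which it was the only gene of the biotype. The remaining 57 genes, of 278 genes of the biotype and 54532 gene identifiers in the counts, are called members here. The members were thus chosen by their summed counts over both groups and, for the genes left out, by the change between the groups, since all 3 genes left out rose in the comparison described below. Therefore the number of members that passed the test is a description and carries no test of the class.

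The libraries were made from whole brains of C57BL/6J mice at postnatal day 14, with 1 library per brain. The control group held 3 brains of genotype Mphosph8fl/+ Nestin-Cre+, and the mutant group held 3 brains of genotype Mphosph8fl/fl Nestin-Cre+, so both groups carried the Cre transgene and at least 1 floxed allele. Exon 4 of Mphosph8 is the floxed part, and Nestin-Cre acts in neuronal progenitors and the cells they give rise to, so brain cells of other origin keep the gene. By these genotypes the controls were heterozygous for the deletion where Cre acts. The comparison is thus of both alleles deleted against 1. The genotype of the controls is given as in the labels, because the study's text mentions only their transgene. The p-values measure the spread between these brains.

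A retrocopy arises when the enzymes of a LINE-1 element, an active retrotransposon, copy a cellular messenger RNA into DNA. The copy lacks the introns and usually the promoter of its parent gene, and it is transcribed only where it landed near a promoter or inside another transcript. Highly expressed genes such as those of ribosomal proteins have left many copies. MPP8, the product of Mphosph8, binds histone H3 trimethylated at lysine 9 as a subunit of the HUSH complex, which is known for silencing LINE-1 elements and other long intronless DNA. The question was whether retrocopies that are transcribed in the brain rise as a class when both alleles of Mphosph8 are deleted.

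The sequences of 3 members are shown beside those of their parents, because the closeness of the copy decides whether a read of 50 bases can be told apart from the parent's. Each window is the first ungapped stretch of 90 bases inside the parent's coding sequence, taken from the GENCODE M21 transcripts of GRCm38 and written 5′ to 3′ on the transcribed strand, with capitals for the bases that differ. Gm14057 (chr2:130803852-130803941, minus strand) was 91.5% identical to Ppp1r14c, which encodes a protein phosphatase 1 inhibitor, over 495 aligned bases, and 9 bases differed in the window (parent chr10:3366720-3366809, plus strand). Gm6472 (chrX:152910031-152910120, minus strand) was 99.5% identical to Rps7, a protein of the small ribosomal subunit, over 582 bases, and 2 bases differed. The Rps7 window (chr12:28635473-28635654, minus strand) crosses an intron that the copy lacks. Gm12346 (chr11:77293496-77293585, plus strand) was 99.5% identical to Hsp90aa1, a cytosolic chaperone, over 2255 bases, and 0 bases differed in the window (parent chr12:110695591-110695680, minus strand).
Gm14057: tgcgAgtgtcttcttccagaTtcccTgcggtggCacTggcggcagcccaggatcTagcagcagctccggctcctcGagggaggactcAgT
Ppp1r14c: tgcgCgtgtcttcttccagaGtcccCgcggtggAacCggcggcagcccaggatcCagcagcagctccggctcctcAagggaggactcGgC
Gm6472: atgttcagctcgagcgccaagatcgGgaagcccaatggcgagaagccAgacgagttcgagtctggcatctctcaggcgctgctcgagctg
Rps7: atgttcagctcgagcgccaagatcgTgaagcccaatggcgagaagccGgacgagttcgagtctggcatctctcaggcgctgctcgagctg
Gm12346: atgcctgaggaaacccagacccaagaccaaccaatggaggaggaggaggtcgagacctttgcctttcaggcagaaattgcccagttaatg
Hsp90aa1: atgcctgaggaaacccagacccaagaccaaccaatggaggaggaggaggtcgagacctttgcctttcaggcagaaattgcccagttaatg

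The best match among protein-coding transcripts was taken as the parent of a member. A parent was found for 54 of the 57 members (48 distinct parents), with an identity from 64.8% to 100% and a median of 88.0%. Magef1, D630033A02Rik and Gm3052 had none. Ribosomal protein genes were the parents of 12 members, zinc-finger protein genes of 8, and mitochondrial ribosomal protein genes of 3. The members lay on 18 chromosomes, 21 had a single exon in every transcript model, and 36 had a model of several exons. In 10 members the gene lay inside another gene on the same strand.

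To see how far the counts of a member belong to it, all runs of 50 bases (words) in a member's transcripts were searched in transcripts of genes elsewhere. The share of words found was 0 in 19 members, under 10% in 42 and at least 50% in 6. For Gm10175, a copy of the ATP synthase subunit gene Atp5g2, it was 100%, and for Gm15500, a copy of the ribosomal protein gene Rpl5, it was 99.9%. It reached 83.9% in Gpx4-ps2, a copy of the glutathione peroxidase gene Gpx4, 77.9% in Gm6472 and 76.7% in Gm12346, and it was 3.23% in Gm14057. The sources used here do not say how reads with several positions were counted, and the counts of the 6 members with the highest shares are uncertain.

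The libraries held 12956880 to 15223424 counts, with 25461 to 25743 genes at 1 count or more. Mphosph8 (ENSMUSG00000079184, chr14:56668248-56697430) had 839, 664 and 1048 counts in the control brains and 414, 365 and 364 in the mutant brains, and fell by 1.02 on the log2 scale (SE 0.12, adjusted p = 0.000157, edgeR's quasi-likelihood test). Neuron and astrocyte markers were abundant, and 3 germ cell markers summed to 2.80 to 4.29 CPM (counts per 1000000 counts, a measure of level corrected for library size), so the libraries matched the labelled tissue. The 8 oligodendrocyte markers were all lower in the mutant and 2 of them, Mog and Cldn11, passed at an adjusted p under 0.05, with summed levels from 21576 to 25839 CPM in the control group and from 17129 to 19850 CPM in the mutant group. Fewer cells of a type and less RNA per cell cannot be told apart in whole tissue, and the part of cell composition in the results below was not tested. Control replicate 3 was the only library with more than 1 count of the Y-linked genes examined. It had 27 counts of the X-inactivation RNA Xist, against 11130 to 17697 in the other libraries. By these genes it was the only male brain, so sex was not balanced between the groups, and its part in the results was not tested.

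Members were transcribed at low levels. The median member had a mean of 0.733 CPM, against 20.8 CPM for all genes tested, and 38 of the 57 members were under 1 CPM. Per kilobase of exon, the members' mean levels ranged from 0.0996 to 10.5 CPM per kb with a median of 0.491. A filter on low counts kept 29 members for the test, which had 62 to 1236 counts in all, and 28 members with 30 to 58 counts did not pass it.

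Across the 57 members, the summed level did not move by more than the spread between brains. It was 108.8, 102.5 and 99.1 CPM in the control brains and 99.2, 109.6 and 110.2 CPM in the mutant brains, which gives 103 ± 4.92 and 106 ± 6.17 CPM (SD, n = 3) and a ratio of 1.03. The groups overlapped, with the lowest mutant brain at the level of the lowest control brain. The log2 ratio of the sum was 0.040, and 0.074 without 2810025M15Rik, the member with the most counts. The SD between brains of the sum of all members was 0.077 on that scale. The 21 members with a single exon summed to 28.5 ± 3.16 CPM in the control and 31.9 ± 5.16 CPM in the mutant group (ratio 1.12), and the 36 members with several exons to 74.9 ± 7.91 and 74.5 ± 1.38 CPM (ratio 0.993). The groups overlapped in both subsets.

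**Figure D1:**
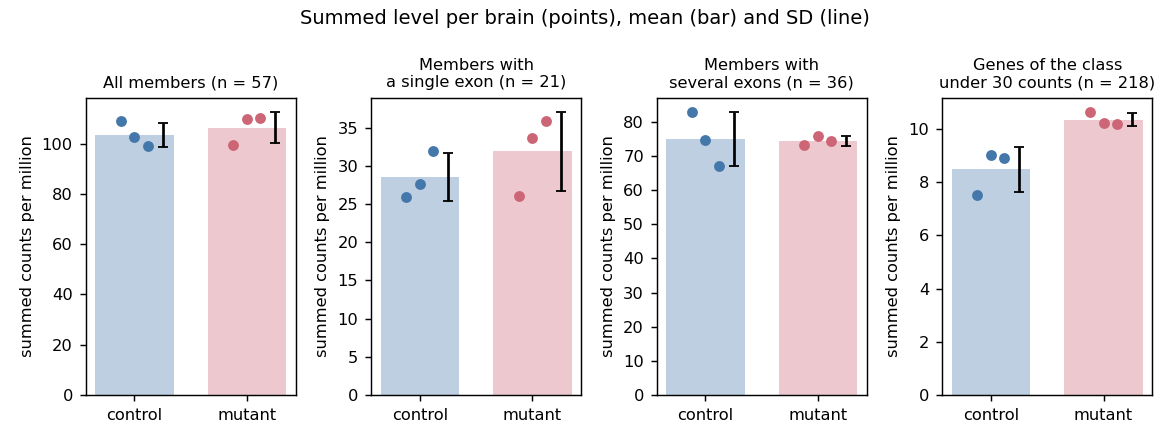
Summed CPM (y axis, from 0) in each of the 3 control and 3 mutant brains (points), with the group mean (bar) and SD (line), for all members, members with a single exon, members with several exons, and genes of the biotype under the 30-count minimum. The groups overlap in the first 3 panels, with means of 103 and 106 CPM for all members, and lie apart in the last, with means of 8.48 and 10.3 CPM.

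No tested member passed the test. With a call defined as an adjusted p under 0.05 and a fold change over 2, 0 of 29 tested members were called, beside 60 of 16731 genes (0.359%), and 0 members had an adjusted p under 0.05 at any fold, beside 105 genes (0.628%). At an unadjusted p under 0.05 there was 1 member, Gm3052, beside 6.51% of all genes, and DESeq2 also called 0 members. With the 3 left-out genes kept in, 3 of 32 were called. The log2 fold changes of the tested members ran from -0.52 to 1.53 with a median of 0.08, against -0.007 for all genes tested, and 17 of 29 (58.6%) were positive, against 47.6% of all genes.

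The precision behind these values was limited by the counts. The median SE of a tested member's log2 fold change was 0.30, against 0.11 for all genes tested. The 95% interval lay wholly under a 2-fold rise in 23 members and included a 2-fold rise in 6. For 21 members it lay within a 2-fold change in either direction. Among the 28 members that were not tested, a fit with no filter gave 16 positive and 12 negative log2 fold changes, from -1.06 to 0.94. Changes of this size were not detectable at 30 to 58 counts. Over all genes with counts 51.7% were positive, a share that includes the genes that passed the filter (47.6% positive). It was thus higher among genes that, like these members, did not pass.

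**Figure D2:**
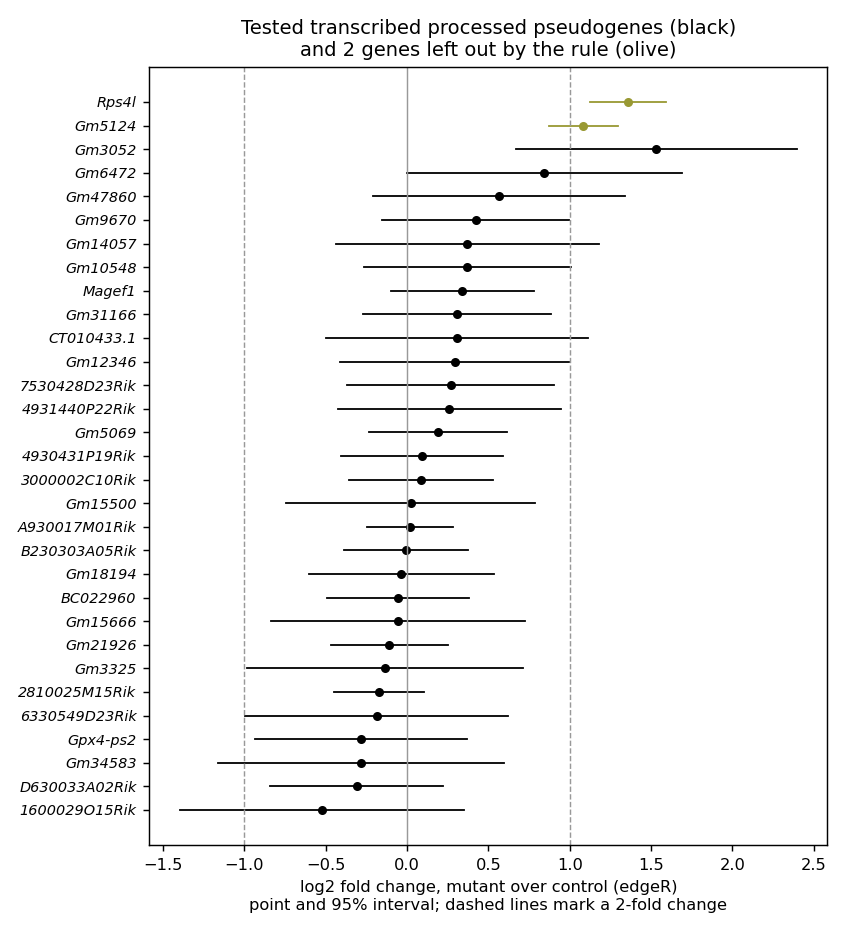
Log2 fold change, mutant over control, of each of the 29 tested members (black) and of the left-out genes Rps4l and Gm5124 (olive), with 95% intervals from edgeR (x axis, log2 scale; dashed lines at a 2-fold change). Only Gm3052 among the members has an interval that excludes 0, and 23 members have an interval wholly under a 2-fold rise.

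The 3 genes that the rule left out had a different pattern, given as a description. Rps4l, a copy of the ribosomal protein gene Rps4x on chromosome 6, had 257, 249 and 219 counts in control and 508, 523 and 670 in mutant brains (log2 fold change 1.36, SE 0.11, adjusted p = 1.98e-06, edgeR). Gm5124, a copy of Nolc1 on the X chromosome, had 300, 265 and 242 counts in control and 496, 533 and 531 in mutant brains (log2 fold change 1.08, SE 0.10, adjusted p = 4.91e-06, edgeR). Of its 2742 exonic bases, 1970 are shared with Gm26593 on the opposite strand. The sources name no strand setting for the counting, so reads of Gm26593 may be among these counts. Smarca5-ps, a copy of the chromatin remodeller gene Smarca5, had 0, 1 and 0 counts in control and 24, 14 and 26 in mutant brains. For Smarca5-ps, 62.3% of the words were also found in other genes. The parents Rps4x, Nolc1 and Smarca5 had log2 fold changes of -0.01, -0.08 and -0.06. With these 3 genes the summed level went from 139 ± 7.91 to 190 ± 9.02 CPM (ratio 1.37), while the sum of the members alone moved by less than the spread between brains.

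Gm3052 was the member with the largest difference. It lies on chromosome 1 (chr1:34415050-34417986, minus strand, ENSMUSG00000101462), overlaps no annotated gene, and has 1 exon in both of its models. It had 4, 9 and 9 counts in the control brains and 11, 22 and 26 in the mutant brains, so every mutant value lay above every control value. The log2 fold change was 1.53 (SE 0.41, 95% interval 0.67 to 2.39), and the adjusted p was 0.146 with edgeR, which did not pass. The call depended on the setting: the adjusted p was 0.0161 with no filter on low counts and 0.0317 without mutant replicate 1, and it lay between 0.0748 and 0.739 under the other alternatives. In the fit with no filter Gm3052 was the only 1 of 57 members called, beside 0.297% of 32278 genes.

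The start of Gm3052 is shown because no protein-coding parent was found for it. The longer model opens with a tandem repeat. Its first 211 bases align at 98.6% identity to a second copy that starts at base 205, so the aligned stretches overlap slightly. The first 90 bases of each copy (first copy chr1:34417897-34417986, second copy chr1:34417693-34417782, GRCm38, minus strand) are given 5′ to 3′, with the base that differs in capitals. Only 4.77% of the words of Gm3052 were found in other annotated genes, and whether it derives from a repeat element was not tested.
Gm3052 first copy: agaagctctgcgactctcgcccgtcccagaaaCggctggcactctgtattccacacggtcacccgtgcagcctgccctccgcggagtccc
Gm3052 second copy: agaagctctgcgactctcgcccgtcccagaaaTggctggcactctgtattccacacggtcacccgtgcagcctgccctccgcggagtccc

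**Figure D3:**
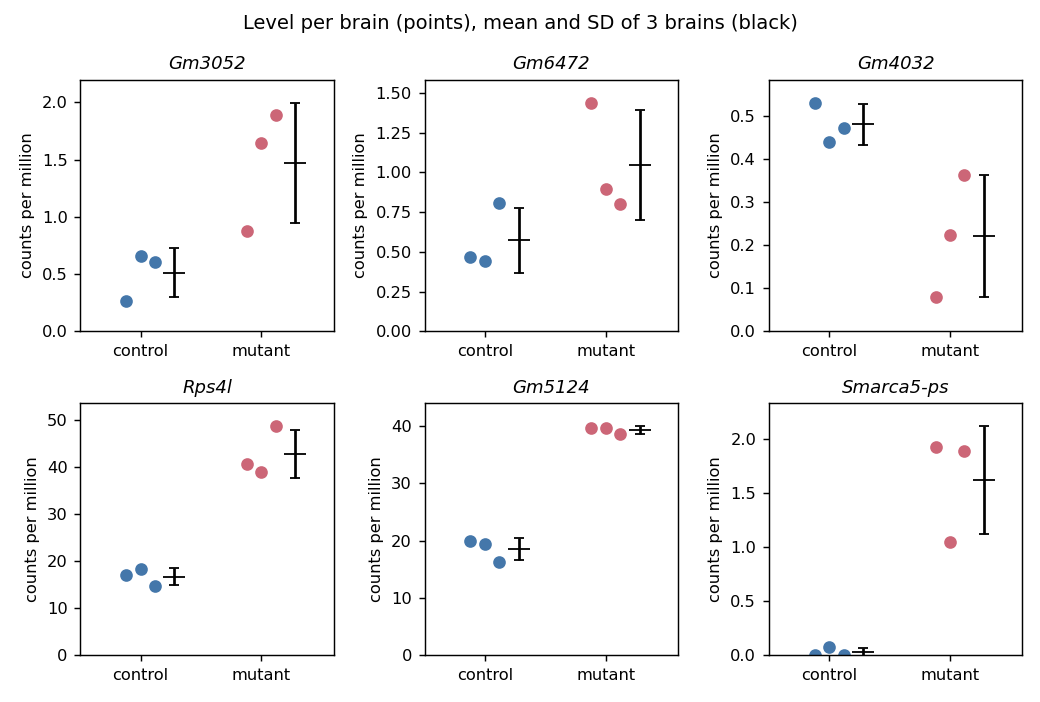
CPM (y axis, from 0, a scale for each gene) in each control and mutant brain (points), with mean and SD of 3 brains, for the members Gm3052, Gm6472 and Gm4032 and the left-out genes Rps4l, Gm5124 and Smarca5-ps. The mutant brains lie above the control brains for Gm3052 and the 3 left-out genes, below them for Gm4032, and overlap with them for Gm6472.

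Mutant values lay above all control values for 2 of the 29 tested members, Gm3052 and Gm10548, beside 6.23% of all genes tested, and below them for 0 members, beside 5.42%. Over all 57 members, Gm7240 and 1 other untested member were also above (4 members, beside 5.36% of genes with counts) and Gm4032 was below (1 member, beside 3.67%). Gm10548, a copy of Rpl29, had 18, 16 and 15 against 15, 19 and 24 counts, a log2 fold change of 0.37 (SE 0.30). The order is by CPM, and the groups of Gm10548 and Gm7240 cross in raw counts.

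Gm4032, a copy of the transcription factor gene Btf3 at 83.9% identity, is a neighbour of the targeted gene. It starts at base 56668124 of chromosome 14 on the minus strand, 123 bases from the start of Mphosph8 on the plus strand, and runs away from it to base 56665605. It had 8, 6 and 7 counts in the control brains and 1, 3 and 5 in the mutant brains. The mutant values were the lower ones in all 3 brains, but with 30 counts in all the gene sat at the minimum of the rule and was not tested. The stretch between the starts (chr14:56668113-56668259, plus strand, GRCm38, from RefSeq) is shown because both genes begin in it, with capitals for the 12 bases at each end that belong to the first exons of Gm4032, on the left, and Mphosph8, on the right.
Gm4032 to Mphosph8: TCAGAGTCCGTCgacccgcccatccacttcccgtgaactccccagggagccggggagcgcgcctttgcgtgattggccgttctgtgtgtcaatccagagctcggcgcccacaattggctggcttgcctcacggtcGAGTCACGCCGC

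Retrocopies of ribosomal protein genes were the largest group. Of the 12, 9 were tested, 6 had a positive and 3 a negative log2 fold change, and the median was 0.26, with 0 called. The share that was positive over all genes was 47.6%. The summed level of the 12 members was 26.3 ± 2.64 CPM in the control group and 26.5 ± 1.39 CPM in the mutant group (SD, n = 3, ratio 1.01), a difference smaller than the spread between brains. More than any other member, 2810025M15Rik, described below, set this sum, with means of 15.7 CPM in the control and 14.0 CPM in the mutant group. It fell while the sum did not, so the others together had a higher mean in the mutant group, which was not tested. Gm6472, the Rps7 copy shown above, had 7, 6 and 12 counts in control and 18, 12 and 11 in mutant brains. Its log2 fold change was 0.84 (SE 0.40, adjusted p = 0.766, edgeR), and the groups overlapped through control replicate 3. Without that brain, the only one with more than 1 count of a Y-linked gene, the value of this X-linked gene was 1.18. Gm9670, an X-linked copy of Rpl13 that shares exonic bases with the X-inactivation RNA Jpx, had 20, 26 and 21 counts in control and 30, 23 and 29 in mutant brains (log2 fold change 0.42, SE 0.27). Gm31166, a copy of Rpl37 with 690 exonic bases opposite the transcription factor gene Ovol1, had 30, 26 and 27 counts against 22, 44 and 28. The difference rested on mutant replicate 2, without which the log2 fold change was -0.006.

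At the other end of this group, 1600029O15Rik, a copy of Rpl17, had the lowest log2 fold change of all tested members. It had 16, 10 and 12 counts in control and 5, 6 and 13 in mutant brains (log2 fold change -0.52, SE 0.41, adjusted p = 0.921, edgeR), and the groups overlapped through mutant replicate 3. Gm34583, a copy of Rpl29, had 16, 15 and 9 against 5, 16 and 9 counts (log2 fold change -0.28, SE 0.42). Rpl29 has 3 copies among the members, Gm10548, 4931440P22Rik and Gm34583, with log2 fold changes of 0.37, 0.26 and -0.28, with 95% intervals that overlap.

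The member with the most counts also came from a ribosomal protein gene. 2810025M15Rik, a diverged copy of Rpl37a at 78.8% identity, had 269, 210 and 205 counts in control and 202, 181 and 169 in mutant brains, and 0 of its words were found elsewhere. The mean was 15.7 ± 2.04 CPM in the control group and 14.0 ± 1.98 CPM in the mutant group (log2 fold change -0.17, SE 0.13). At 10.5 CPM per kb it was also the most highly transcribed member per length. It shares 244 exonic bases with Rasal2 on the opposite strand, and the sources used here name no strand setting for the counting.

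Next in counts came members with other best matches and, described below, Magef1. A930017M01Rik, whose best match was the RNA decay gene Smg5 at 64.8% identity, had a mean of 10.3 ± 0.46 CPM in the control group and 10.4 ± 0.57 CPM in the mutant group (SD, n = 3), and a 95% interval from -0.25 to 0.28. This is the narrowest interval among the members. Gm21926, a copy of the inflammasome gene Nlrp2, had 204, 129 and 118 counts in control and 120, 138 and 122 in mutant brains (log2 fold change -0.11, SE 0.17), and control replicate 1 stood above the other 5 brains. BC022960 on the X chromosome had 83, 106 and 112 against 53, 107 and 106 counts (log2 fold change -0.05, SE 0.21), with mutant replicate 1 below the rest. Its best match was Pphln1, the gene of the HUSH subunit periphilin, at 80.5% identity over 38.8% of its model. B230303A05Rik, a copy of the spliceosomal gene Snrpc, had 90, 89 and 67 against 68, 68 and 88 counts (log2 fold change -0.005, SE 0.18).

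Copies of genes of metabolism overlapped between the groups as well. 3000002C10Rik, a copy of the glycolytic gene Gapdh at 94.4% identity, had 61, 48 and 51 counts in control and 36, 56 and 63 in mutant brains (log2 fold change 0.08, SE 0.21). Gm5069, whose best match was Gm10358, had 62, 41 and 46 against 46, 52 and 57 counts (log2 fold change 0.19, SE 0.20). Gpx4-ps2 had 29, 23 and 44 against 13, 29 and 30 counts (log2 fold change -0.28, SE 0.31).

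Copies of other genes included Gm47860, a copy of the spliceosomal gene Snrpd3, which had 8, 13 and 13 counts in control and 20, 13 and 13 in mutant brains (log2 fold change 0.57, SE 0.37). Mutant replicate 1 alone stood above the rest. Gm14057, the Ppp1r14c copy shown above, had 14, 6 and 14 against 16, 14 and 10 counts (log2 fold change 0.37, SE 0.38). Gm12346, the Hsp90aa1 copy, had 19, 17 and 14 against 17, 12 and 27 counts (log2 fold change 0.29, SE 0.33). 6330549D23Rik, a copy of the Integrator subunit gene Ints14 at 97.1% identity, had 13, 13 and 9 against 10, 11 and 7 counts (log2 fold change -0.19, SE 0.38). The 2 members whose best match was Btf3 were the untested Gm4032 and 4930431P19Rik, which had 34, 32 and 42 against 27, 42 and 36 counts (log2 fold change 0.09, SE 0.24). 7530428D23Rik, whose best match was the ephrin receptor gene Epha6 at 96.9% identity, had 51, 25 and 19 against 35, 37 and 32 counts (log2 fold change 0.27, SE 0.30), and control replicate 1 stood above the other 5 brains.

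Of the 8 members whose best match was a zinc-finger protein gene, 3 were tested. Gm3325, a copy of Zfp808 at 95.3% identity, had 9, 16 and 16 counts in control and 15, 6 and 13 in mutant brains (log2 fold change -0.14, SE 0.40). CT010433.1, a copy of Zfp53 on chromosome 17, had 9, 14 and 15 against 17, 8 and 18 counts (log2 fold change 0.31, SE 0.38). Gm18194, whose best match was Zfp329 at 67.8% identity, lies within Zscan18 and had 23, 21 and 28 against 18, 23 and 23 counts (log2 fold change -0.04, SE 0.27). The gene that shared most of its words was Hmgb1, with 14.0% of them, so the parent of Gm18194 is uncertain. The groups overlapped for all 3.

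Among the members that were not tested, Gm10175, whose words were all found elsewhere, had 6, 12 and 12 counts in control and 2, 8 and 8 in mutant brains. Rpl37rt, an Rpl37 copy at 99.7% identity, had 9, 14 and 7 against 9, 11 and 7 counts. Gm29036, a copy of the RNA polymerase III subunit gene Polr3f within Lcorl, had 5, 10 and 9 against 10, 9 and 14 counts. Gm15645, a copy of Odc1, the ornithine decarboxylase gene of polyamine synthesis, had 6, 10 and 5 against 6, 4 and 0 counts. The groups overlapped or touched for all 4.

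Of the members with no parent, Magef1, an intronless gene of the MAGE family of ubiquitin ligase regulators, had 90, 52 and 91 counts in control and 62, 94 and 113 in mutant brains. The mean was 5.31 ± 1.30 CPM in the control group and 6.73 ± 1.65 CPM in the mutant group (log2 fold change 0.34, SE 0.21, adjusted p = 0.888, edgeR), and the groups overlapped. D630033A02Rik, which shares exonic bases with the microRNA gene Mirlet7i on the same strand, had 62, 43 and 47 against 21, 47 and 44 counts (log2 fold change -0.31, SE 0.25), with mutant replicate 1 below the other 5 brains.

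The values of the parents were not used by the rule. Of the 48 parents, 43 were tested and 0 were called, beside 0.359% of all genes. Their median log2 fold change was -0.06. For the 22 tested members with a tested parent, the parents' values ran from -0.28 to 0.17, with a lowest adjusted p of 0.733 (edgeR), and 15 of the 22 members lay above their parent. Pearson's r between member and parent was 0.10 and Spearman's rho 0.02 over these 22 pairs, which share the same 6 libraries and in part the same parent. The share of words found elsewhere had an r of 0.03 with the members' log2 fold change over the 29 tested members. The 3 tested members inside a tested gene on the same strand had hosts with log2 fold changes from -0.02 to 0.13.

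**Figure D4:**
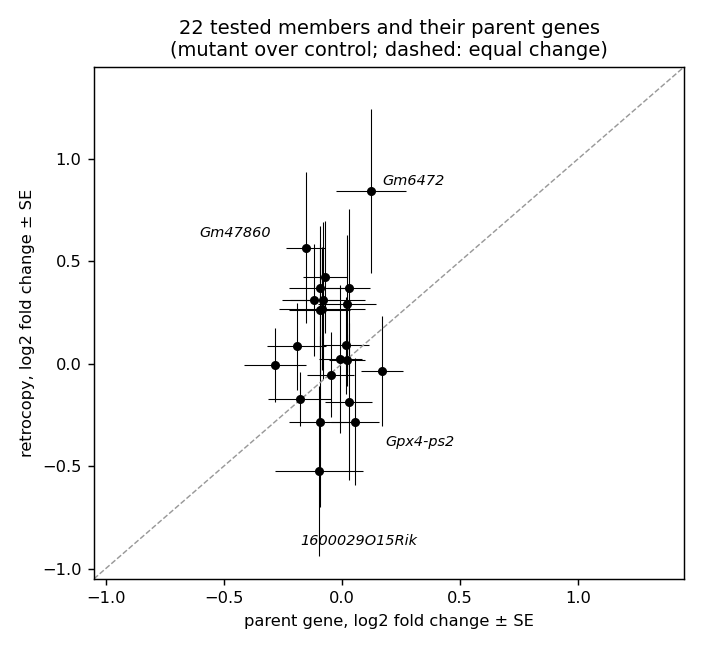
Log2 fold change, mutant over control, of 22 tested members (y axis) against that of their parent genes (x axis), both on the log2 scale with SE as lines; the dashed line marks an equal change. The parents stay between -0.28 and 0.17 while the members range from -0.52 to 0.84, and the members' errors are wider.

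Genes of the biotype below the minimum held few counts. The members just inside it were Gm4032 with 30 counts and Gm15645, Gm7435 and Gm12504 with 31 each, and the genes just outside it were Ccnb2-ps with 29 (4, 4 and 4 in control, 10, 5 and 2 in mutant brains) and 4930526A20Rik with 28 (4, 8 and 6 against 2, 4 and 4). Of the 218 genes below 30 counts, 101 had 0 counts and 117 had some. Their summed level was 7.51, 9.01 and 8.91 CPM in the control brains and 10.6, 10.2 and 10.2 CPM in the mutant brains (8.48 ± 0.84 and 10.3 ± 0.25, SD, n = 3, ratio 1.22), and the groups did not overlap. Of the 117 genes, 70 had a higher and 47 a lower mean in mutant brains. Over all genes with counts, 51.7% had a positive log2 fold change, beside 47.6% of those that passed the filter. The share was thus above 51.7% among genes of any biotype that failed it, and the split is not particular evidence on this biotype. The sum rests on 113 to 140 counts per library and was chosen for description after the values were seen.

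Set beside other gene classes in the same fit, the members' median of 0.08 was not the highest. Processed pseudogenes with no annotated transcription had a median of 0.14, with 68.3% of 123 tested genes positive and 3 called higher. No genes were left out of that class, while the rule left 3 genes that rose out of the members. With those 3 genes kept in, the members' median was 0.141, beside 0.135 for processed pseudogenes, so the order depends on the rule. The medians were 0.11 for 484 lincRNA genes, 0.07 for 457 antisense genes, -0.003 for 30 transcribed unprocessed pseudogenes and 0.02 for 306 single-exon protein-coding genes other than clustered protocadherins. The difference between the members and these classes was not tested. Members with a single exon had a median of 0.09 (11 tested) and members with several exons 0.05 (18 tested). The fit with no filter set these subsets further apart. In it 15 of 21 members with a single exon were positive (median 0.203), and 18 of 36 with several exons (median 0.003). Over all genes with counts 51.7% were positive. That fit includes the 28 members with 30 to 58 counts, and the difference between the subsets was not tested.

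**Figure D5:**
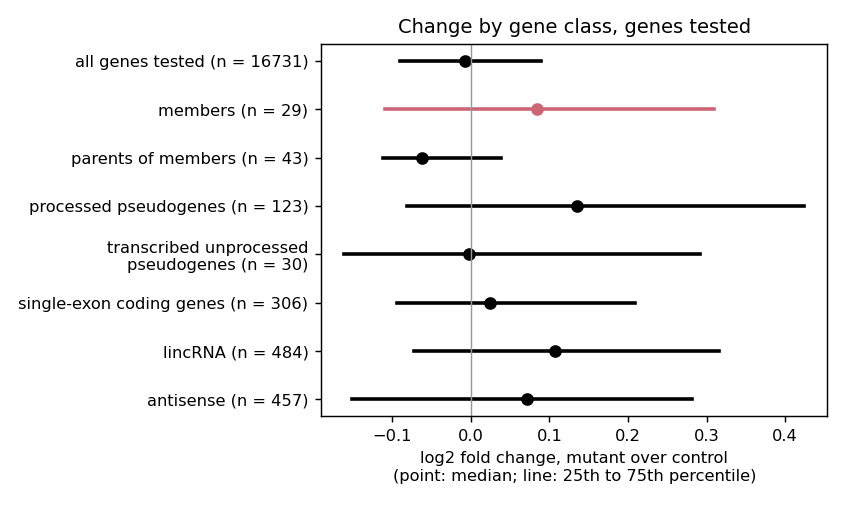
Median (point) and middle range from the 25th to the 75th percentile (line) of the log2 fold change, mutant over control (x axis), for the genes tested in each class. The members' median of 0.08 lies between those of all genes tested (-0.007) and of processed pseudogenes (0.14), and its range overlaps those of all other classes shown.

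Genes that control retrotransposons were also examined, as the machinery that silences or senses such copies. Of a list of 23, 22 were tested, 2 rose and 1, Mphosph8, fell at an adjusted p under 0.05, beside 0.628% of all genes. The genes that rose were Fam208a, which encodes the HUSH subunit TASOR (group means of 49.9 CPM for control and 85.2 CPM for mutant, log2 fold change 0.77, SE 0.12, adjusted p = 0.00141, edgeR), and Morc2a, a chromatin ATPase that works with HUSH (means of 58.4 and 79.4 CPM, log2 fold change 0.45, SE 0.09, adjusted p = 0.0208, edgeR). Pphln1, the third HUSH subunit and the best match of BC022960, had a log2 fold change of -0.05 (SE 0.10). The median of the list was 0.02.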

How the data were processed

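Brains were profiled as polyA-selected RNA with single reads of 50 bases. The authors trimmed reads (Trim Galore 0.5.0), removed abundant sequences (Bowtie2 2.3.4.1), aligned with STAR to GRCm38 and counted with featureCounts (Subread 1.6.2). Raw, unscaled counts of reads per gene were deposited. Settings for strand and for reads with several positions are not given in the sources read.

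Identifiers were matched to GENCODE M21 (54495 of 54532). Groups were compared with the quasi-likelihood test of edgeR (edgeR 4.0.16, R 4.3.3) on all 6 libraries with filterByExpr, TMM, and genotype as the only term, with Benjamini-Hochberg adjustment over 16731 genes. CPM values use the effective library size. Parents were found with blastn 2.17.0 from the transcript model of pseudogene type (sense matches of at least 100 bases and 25% of the model). Alternatives were DESeq2 1.42.0, limma-voom (limma 3.58.1), RLE size factors, other filters, each library left out, the replicate block, a GC trend removed, and other member rules. The steps were tested on simulated data. No pair of replicates agreed within sampling noise.

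The members and lists were chosen with earlier results of these data known. Members were named by the lowest adjusted p, the 8 largest and 8 smallest log2 fold changes, the 8 highest levels, groups that did not overlap, the edge of the 30-count minimum, and the genes left out, with parents and hosts. Gm12346, Gm10175, Gm15500, 4930431P19Rik, 4931440P22Rik, 7530428D23Rik, CT010433.1, Gm18194, Rpl37rt, Gm29036, Gm7435 and Gm12504 were named after their values were seen. RefSeq promoters were found for 4 members. Untested members without values of their own in the text are covered by the counts and ranges only.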

Additional observations from a re-analysis of the deposited data

How the results depend on the processing

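The number of members called was 0 in all alternatives but 4: 1 without a filter, 0 to 1 with each library left out (1, Gm3052, without mutant replicate 1), 2 with Rps4l and Gm5124 kept in, and 3 with all left-out genes kept in. The numbers at an adjusted p under 0.05 at any fold were likewise 1, 0 to 1, 2 and 3. The median log2 fold change was positive in all alternatives and ran from 0.031 to 0.179 with each library left out. Those fits tested 33 to 37 members. Over the 29 members of the main test the median ran from 0.014 to 0.179. Without mutant replicate 1 it was 0.179 with 26 of 37 tested members positive (70.3%, against 49.5% of all genes). The median over the 29 members was also 0.179 there, and the cause was not tested. Without mutant replicate 2 it was 0.156 over 36 tested members but 0.057 over the 29, so that higher value came with the members added to the test. Positive members numbered 33 of 57 in DESeq2 and with no filter, 11 of 18 at a minimum of 100 counts, 7 of 11 for members clear of other genes, and 19 to 26 with each library left out, settings that test other numbers of members. The log2 ratio of the summed level, mutant over control, was 0.040, beside an SD between brains of 0.0772 on the log2 scale. It was above that SD without control replicate 1 (0.0777) and without mutant replicate 1 (0.0874), and below it in the other alternatives.

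Of the 29 tested members, 14 kept their sign in all alternatives that gave them a value. The log2 fold change of B230303A05Rik was 0.0078 in limma-voom. With each library left out it ran from -0.144 to 0.101 for B230303A05Rik, -0.053 to 0.253 for 3000002C10Rik, -0.052 to 0.210 for 4930431P19Rik, -0.353 to 0.0090 for 6330549D23Rik, -0.0017 to 0.756 for 7530428D23Rik, -0.022 to 0.056 for A930017M01Rik, -0.206 to 0.178 for BC022960, -0.036 to 0.534 for Gm12346, -0.301 to 0.304 for Gm15500, -0.249 to 0.236 for Gm15666, -0.092 to 0.074 for Gm18194, -0.266 to 0.140 for Gm21926, -0.0057 to 0.474 for Gm31166, -0.429 to 0.174 for Gm3325 and -0.782 to 0.0015 for Gm34583. None of these passed the test, and the cause was not tested.

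The labels do not say whether the replicate numbers pair the brains, and the study describes the animals as littermates. The deviations of same-numbered brains correlated at 0.11, -0.07 and 0.10, which cannot settle it with so few brains. With the replicate block 0 members were called, the median was 0.074 and the adjusted p of Gm3052 was 0.0748 (edgeR). Low counts limit these results, since the median SE was 0.30 and 28 of 57 members were not tested.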
